A study of Mus musculus with 16 samples.

Results

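The mouse Ifitm family was followed through all 16 scRNA-seq libraries of a study of IACS-70654, an inhibitor of the bromodomain (BRD) of CBP and P300, in the 2208L mammary tumor model. The members were Ifitm1, Ifitm2, Ifitm3 and Ifitm6, which are 4 of the 32286 features counted, matched by symbol in each feature list. They were chosen from these same data, because Ifitm1 was among the leading genes of IACS-70654–treated mature neutrophils and Ifitm6 of immature ones. The values of IACS-70654 against vehicle in BM neutrophils are therefore a description here, without a test. So is the order of levels over neutrophil stages.

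2208L is a single transplanted Trp53-null mammary tumor line, grown from tumor pieces in the mammary fat pad of female WT BALB/c mice, young adults at implantation, with an intact immune system. BM came from non–tumor-bearing WT mice (ctrl, untreated), from 2208L tumor–bearing mice given vehicle, and from 2208L tumor–bearing mice given IACS-70654 by mouth. Each of these groups had 2 libraries of CD45+ Ter119- cells and 2 libraries of lineage-negative c-Kit+ CD45+ cells, which makes 12 BM libraries. The other 4 libraries held viable cells of 2208L tumors after vehicle, IACS-70654, anti–PD-1 (an antibody that blocks the checkpoint receptor PD-1), or IACS-70654 with anti–PD-1, with 1 library each. The title of the last says only combination, and the combination described in the study's text also held the chemotherapy drug docetaxel. Treatment lasted 7 days in the deposited record, and the study's text gives a shorter course for the BM experiment. Cells of 3 mice were pooled for each sample, and no source says whether the 2 libraries of a group came from separate pools, so p-values measure only the spread between these libraries, which may be technical.

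IFITM proteins are small membrane proteins of the plasma membrane and endosomes that restrict the entry of enveloped viruses into cells. Ifitm1, Ifitm2 and Ifitm3 are induced by type I and type II interferon in many cell types, and stem cells can express them without interferon. Interferons act through JAK kinases and STAT factors, whose complexes bind the interferon-stimulated response element (ISRE, taken here as GAAA, 2 bases of any kind and GAAA) and the gamma-activated site (GAS, TTCNNNGAA). Ifitm6 is less studied and is known from myeloid cells.

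All members lie in 1 cluster on mouse chromosome 7 of GRCm38 (mm10), the build of the deposited counts, at chr7:140948958-141017924 in GENCODE vM21. Ifitm1 (ENSMUSG00000025491) spans chr7:140967221-140969825 on the plus strand. The others are on the minus strand: Ifitm2 (ENSMUSG00000060591) at chr7:140954837-140955987, Ifitm3 (ENSMUSG00000025492) at chr7:141009586-141010770 and Ifitm6 (ENSMUSG00000059108) at chr7:141015699-141017924. Ifitm3 and Ifitm6 are separated by 4.93 kb, Ifitm2 and Ifitm1 by 11.2 kb, and Ifitm1 and Ifitm3 by 39.8 kb. Ifitm5 and the predicted gene Gm45717, which overlaps Ifitm2 and is no row of the files, are the remaining protein-coding genes of the cluster.

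The RefSeq promoter windows of the members, from 250 bases before to 50 bases after the annotated start on GRCm38.p6, are shown because interferon induces its targets through such elements and the members moved differently from one another. Each runs 5′ to 3′ on the gene's own strand, and capitals mark matches to the ISRE or GAS letters.
Ifitm1 (chr7:140967826-140968125, plus strand): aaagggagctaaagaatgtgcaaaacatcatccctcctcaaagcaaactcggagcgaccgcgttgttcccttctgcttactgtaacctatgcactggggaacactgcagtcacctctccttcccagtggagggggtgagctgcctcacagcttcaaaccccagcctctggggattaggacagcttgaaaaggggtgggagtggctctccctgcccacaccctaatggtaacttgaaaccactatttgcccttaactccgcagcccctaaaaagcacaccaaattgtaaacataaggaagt
Ifitm2 (chr7:140955912-140956211, minus strand): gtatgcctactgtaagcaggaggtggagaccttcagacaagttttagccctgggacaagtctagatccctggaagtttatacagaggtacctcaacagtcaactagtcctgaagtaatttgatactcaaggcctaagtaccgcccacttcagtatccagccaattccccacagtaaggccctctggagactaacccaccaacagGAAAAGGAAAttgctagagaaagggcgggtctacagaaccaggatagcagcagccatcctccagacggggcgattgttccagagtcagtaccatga
Ifitm3 (chr7:141010695-141010994, minus strand): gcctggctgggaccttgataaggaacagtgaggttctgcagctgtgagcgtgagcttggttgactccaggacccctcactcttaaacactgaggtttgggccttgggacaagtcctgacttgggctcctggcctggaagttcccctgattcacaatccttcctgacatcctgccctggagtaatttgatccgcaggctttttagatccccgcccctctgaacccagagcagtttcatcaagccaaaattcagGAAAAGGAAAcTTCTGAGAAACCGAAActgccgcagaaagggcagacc
Ifitm6 (chr7:141016843-141017142, minus strand): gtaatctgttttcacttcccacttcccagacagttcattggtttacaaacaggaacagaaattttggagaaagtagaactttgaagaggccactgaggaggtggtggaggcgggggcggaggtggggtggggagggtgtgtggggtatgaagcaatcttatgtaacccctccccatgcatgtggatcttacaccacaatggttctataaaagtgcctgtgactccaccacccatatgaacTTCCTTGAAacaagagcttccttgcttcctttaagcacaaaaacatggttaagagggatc

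Searched on both strands, the Ifitm3 window held 2 ISRE matches, GAAAAGGAAA at bases 2 to 11 and GAAACCGAAA at bases 19 to 28 after the start, and 1 GAS match, TTCTGAGAA at bases 13 to 21, which overlaps the second ISRE match. The Ifitm2 window held 1 ISRE match, GAAAAGGAAA from 46 to 37 bases before the start, with the same letters as the first match of Ifitm3. A single GAS match, TTCCTTGAA from 10 to 2 bases before the start, stood in the Ifitm6 window, and neither pattern was found in that of Ifitm1. Of 32851 RefSeq promoters of this length, 1131 (3.44%) held the ISRE letters and 2726 (8.30%) the GAS letters. Among the interferon-stimulated genes listed below, 29 had a promoter in the table, of which 17 held the ISRE letters and 6 the GAS letters. The RefSeq starts of Ifitm1 and Ifitm6 lie well inside their longer GENCODE spans, which hold 3 transcripts each, so these windows describe those starts alone, and a match is not evidence of binding. In the last 400 bases of the transcripts, from which 3′ reads come, 35 of 311 stretches of 90 bases of Ifitm2 also occurred in Gm8865, and the other members shared none with another gene.

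Across libraries, total UMIs ranged from 15590289 to 68415534, kept cells from 1974 to 7517, and median UMIs per kept cell from 4113 to 9512. Within each sort the libraries shared 0 cell barcodes, and replicates differed by more than counting noise (chi-square per degree of freedom 1.61 to 3.53). The study tagged its samples and separated them by tag after sequencing. Libraries of a sort may therefore come from a shared capture, which was not tested. Clusters were named by marker lists, with the members, interferon genes and their relatives kept out of the genes used to cluster, and each name stands for a class that is alike by markers. Clusters that had a low score, no lead over another list, leading genes of another list or too few cells (3 in CD45+, 1 in c-Kit+ and 3 in tumor libraries) were left unnamed and out of the comparisons. Levels are in CPM, the UMIs of a gene per 1000000 UMIs of all cells of a class in 1 library, and are compared across classes for 1 gene but not between genes, since 3′ counts depend on the gene. A change was called at an adjusted p of 0.01 and a log2 change past 0.5 in edgeR's quasi-likelihood test on summed UMIs, with Benjamini-Hochberg adjustment over all genes of a class. Adjusted p-values below are from this test. In mature neutrophils most ctrl cells lay in cluster 3 (2244 cells), most vehicle cells in cluster 0 (3288) and most IACS-70654–treated cells in cluster 2 (2989), so the stages were compared across different clusters. Among immature neutrophils, too, cluster 1 held most vehicle cells (2542) and cluster 6 most treated cells (1850), whereas ctrl cells lay mainly in clusters 10 (877) and 7 (830), with 469 in cluster 1.

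Within BM neutrophils the members peaked at different stages. Ifitm1 and Ifitm6 had been chosen for stages in which they led, so their order of stages is no independent result. Ifitm1 and Ifitm2 were highest in the latest stages, Ifitm6 in immature neutrophils, and Ifitm3 was spread over the immature and mature stages. In vehicle libraries, early precursors, which express azurophil granule genes, had Ifitm1 at 115 and 92.0 CPM, cycling preNeu at 67.8 and 68.7 CPM, immature neutrophils at 348 and 335 CPM, mature neutrophils, which express the chemokine receptor gene Cxcr2, at 3529 and 3381 CPM and the Il1b-high class at 5861 and 5539.5 CPM. These ranges did not overlap, and the order from cycling preNeu to the Il1b-high class also held in each ctrl and each treated library.

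Ifitm6 took another course: in vehicle libraries, early precursors had 274 and 238 CPM, cycling preNeu 1549 and 1555 CPM, immature neutrophils 6064 and 5917 CPM, mature neutrophils 2264 and 2279 CPM and the Il1b-high class 361 and 388 CPM. It was thus higher in immature cells than in any other neutrophil stage, in ctrl and treated libraries as well. For Ifitm2 the vehicle values ran from 430.3 and 390.3 CPM in early precursors and 489.6 and 517 CPM in cycling preNeu to 1602 and 1539.6 CPM at the immature, 3352 and 3229 CPM at the mature and 4267 and 4399 CPM at the Il1b-high stage. Ifitm3 of early precursors was 218 and 182 CPM and of cycling preNeu 871 and 865 CPM, and the immature (2190.5 and 2149.6 CPM) and mature (2279 and 2234 CPM) stages, which differed by little more than the spread within each, stood above the Il1b-high class (1507 and 1496 CPM).

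**Figure D1:**
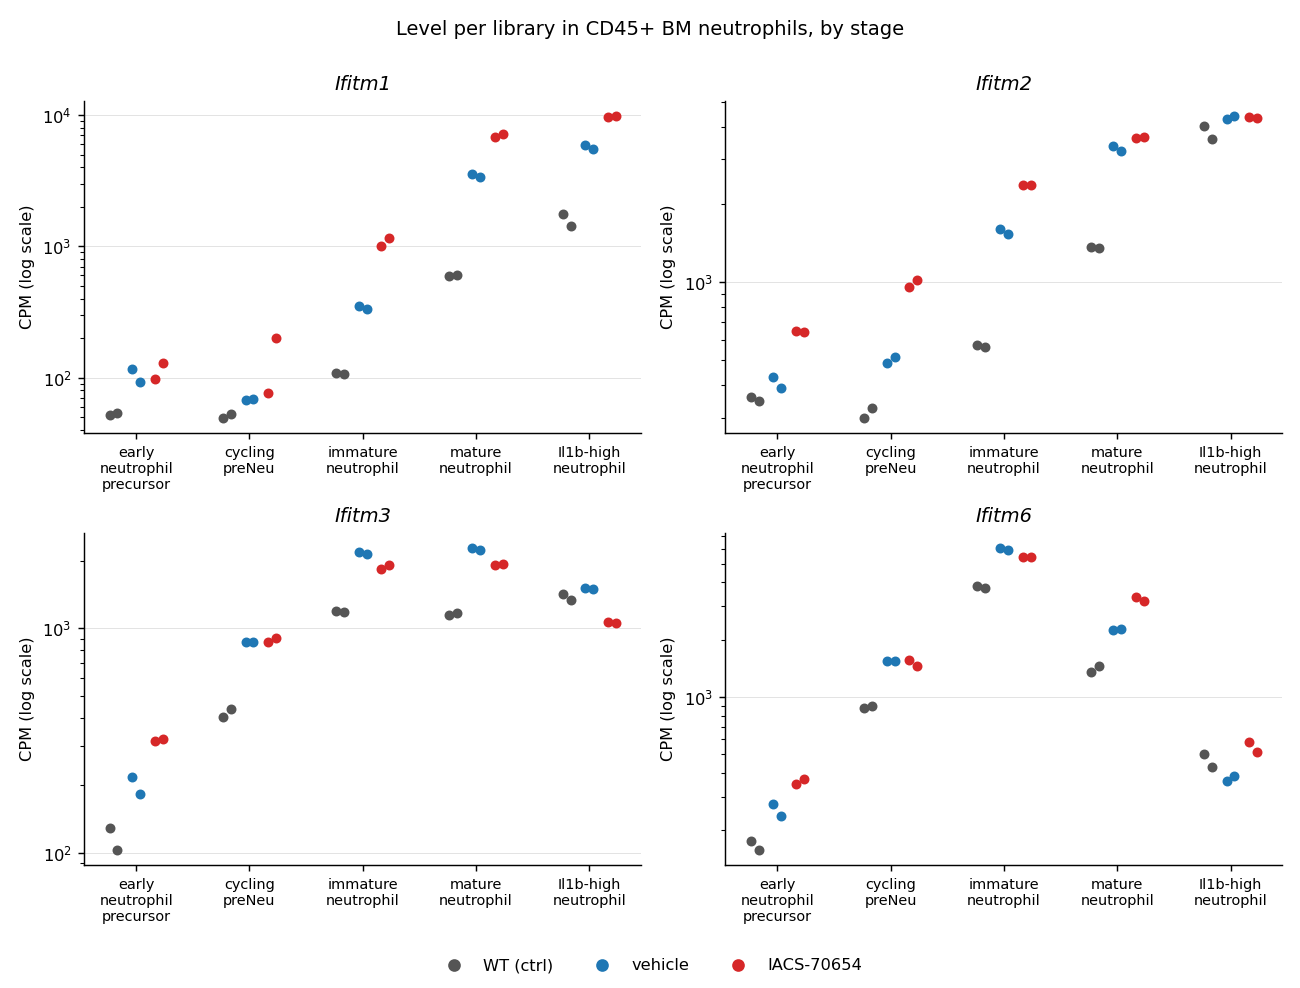
Level of each member (CPM, log axis, 1 panel per gene with its own scale) in the 5 BM neutrophil stages, with 1 point per library colored by group (WT ctrl, vehicle and IACS-70654, 2 libraries each). Ifitm1 climbs from at most 200.2 CPM in the early stages to 5539.5 CPM or more in the Il1b-high class of tumor-bearing mice, whereas Ifitm6 peaks in immature neutrophils at 3733 CPM or more.

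The first comparison asks how the BM of 2208L tumor–bearing mice differs from that of WT mice. The tumor-bearing mice also had the implantation and were given vehicle, whereas ctrl mice were untreated, so these cannot be told apart from the tumor. All 4 members were higher with vehicle than in ctrl in both mature and immature neutrophils, and Ifitm1 had the highest fold in mature neutrophils. In immature neutrophils the order depended on how stages were set: Ifitm1 was above Ifitm2 with the clusters used here (log2 changes 1.93 and 1.73) but below it with stage per cell (1.502 and 1.60) and with clusters at 1.5 times the resolution (1.02 and 1.504). In mature neutrophils Ifitm1 measured 595 and 608 CPM in ctrl and 3529 and 3381 CPM with vehicle. The groups lay far apart, a 6.06-fold difference (log2 change 2.60 ± 0.035 SE, adjusted p = 5.14e-42). Ifitm2 measured 1369 and 1354 CPM in ctrl and 3352 and 3229 CPM with vehicle (log2 change 1.35 ± 0.030 SE, adjusted p = 3.23e-33). For Ifitm3 the values were 1143 and 1165 CPM in ctrl and 2279 and 2234 CPM with vehicle (log2 change 1.04 ± 0.031 SE, adjusted p = 1.10e-28), and for Ifitm6 1347 and 1459 CPM in ctrl and 2264 and 2279 CPM with vehicle (log2 change 0.77 ± 0.033 SE, adjusted p = 1.09e-22). No ctrl library overlapped a vehicle library for any member in this stage. How many of all genes separate in this way was not counted, here or in the classes below. With 2 libraries in each group, genes without a change can separate too, so a lack of overlap is a description. Of all genes tested in mature neutrophils, 5.04% were called higher and 4.09% lower.

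In immature neutrophils Ifitm1 measured 109 and 106 CPM in ctrl and 348 and 335 CPM with vehicle (log2 change 1.93 ± 0.047 SE, adjusted p = 4.72e-119), from a low level in WT mice. Ifitm2 measured 572 and 563 CPM in ctrl and 1602 and 1539.6 CPM with vehicle (log2 change 1.73 ± 0.030 SE, adjusted p = 1.16e-156). The changes of Ifitm3 (1195 and 1181 CPM in ctrl and 2190.5 and 2149.6 CPM with vehicle, log2 change 1.13, adjusted p = 9.79e-121) and Ifitm6 (3849 and 3733 CPM in ctrl and 6064 and 5917 CPM with vehicle, log2 change 0.92, adjusted p = 2.11e-109) were smaller, and again no library of one group reached the other. In this stage 4.97% of all genes were called higher and 4.19% lower. Scaling by total UMIs moved the median of all genes for vehicle against ctrl by −0.26 in immature neutrophils and −0.15 in cycling preNeu. The sizes of these changes therefore depend on the scaling.

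In earlier and later stages not all members were called, and differences between stages were not tested. Cycling preNeu rose in Ifitm2 (299 and 326 CPM in ctrl and 489.6 and 517 CPM with vehicle, log2 change 0.84, adjusted p = 2.30e-17), Ifitm3 (403 and 436 CPM in ctrl and 871 and 865 CPM with vehicle, log2 change 1.20, adjusted p = 1.98e-24) and Ifitm6 (878 and 904 CPM in ctrl and 1549 and 1555 CPM with vehicle, log2 change 0.95, adjusted p = 1.32e-22). Ifitm1 in these cells, at 49.2 and 52.6 CPM in ctrl and 67.8 and 68.7 CPM with vehicle, had a log2 change of 0.57 that was not called (adjusted p = 0.0334), though it was with finer clusters (0.71) and with stage per cell (0.90). In early precursors Ifitm1 (52.0 and 53.5 CPM in ctrl and 115 and 92.0 CPM with vehicle), Ifitm3 and Ifitm6 rose with log2 changes of 0.99, 0.83 and 0.65 (adjusted p = 2.05e-04, 5.38e-06 and 1.81e-05), while Ifitm2 was not called (log2 change 0.23, adjusted p = 0.0682). The call of Ifitm1 in early precursors was lost without ctrl replicate 1 (log2 change 0.96) and that of Ifitm6 without the upper limit on genes (0.47), while Ifitm2 gained one with finer clusters (0.52).

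Il1b-high neutrophils, whose Il1b encodes the inflammatory cytokine IL-1β, rose in Ifitm1 (1747 and 1424 CPM in ctrl and 5861 and 5539.5 CPM with vehicle, log2 change 1.80 ± 0.079 SE, adjusted p = 1.15e-21). Ifitm2 (4009 and 3589.5 CPM in ctrl and 4267 and 4399 CPM with vehicle, adjusted p = 0.237), Ifitm3 (1419 and 1340.4 CPM in ctrl and 1507 and 1496 CPM with vehicle, adjusted p = 0.737) and Ifitm6 (502 and 432 CPM in ctrl and 361 and 388 CPM with vehicle, adjusted p = 0.194) were not called there. When each neutrophil was given the stage of its highest marker score instead of its cluster's, Ifitm2 and Ifitm3 were called in this class, with log2 changes of 1.18 and 0.72, and Ifitm6 went from −0.36 to 0.31 without a call. Of 24950 neutrophils, 81.2% kept their stage under this assignment and 2096 lay within 0.1 of the next score.

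Over the 11 classes of CD45+ BM, 23 of 44 pairs of a member and a class were called higher with vehicle than in ctrl: 7 of 11 for Ifitm1, 5 for Ifitm2, 5 for Ifitm3 and 6 for Ifitm6. None was called lower, with 32 pairs higher and 3 lower at an unadjusted p under 0.05 and 20 higher and 0 lower by DESeq2. Over all genes and classes of that comparison, 1.65% were called higher and 1.27% lower. The vehicle libraries are those of the contrast that chose the members.

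With IACS-70654, the members moved apart in the neutrophils, and these values, which chose the family, are given without a test. Ifitm1 was higher than with vehicle in mature neutrophils, at 6815 and 7146 CPM against 3529 and 3381 CPM (log2 change 0.84), in immature neutrophils, at 1009 and 1153 against 348 and 335 CPM (log2 change 1.40), and in Il1b-high neutrophils, at 9616 and 9849 against 5861 and 5539.5 CPM (log2 change 0.77). In all 3 stages the treated libraries lay above the vehicle libraries, which lay above ctrl. In cycling preNeu the log2 change of 0.85 rested on 1 library, since the treated replicates measured 76.2 and 200.2 CPM against 67.8 and 68.7 CPM with vehicle, and it was −0.083 without IACS-70654 replicate 2. Early precursors overlapped, at 97.1 and 129 CPM with IACS-70654 and 115 and 92.0 CPM with vehicle.

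Ifitm3 lay lower with IACS-70654 in the later stages, at 1915 and 1928 CPM against 2279 and 2234 CPM in mature (log2 change −0.41), 1835 and 1907 against 2190.5 and 2149.6 CPM in immature (−0.48) and 1072 and 1051 against 1507 and 1496 CPM in Il1b-high neutrophils (−0.50). Its direction was opposite in early precursors, at 315 and 321 against 218 and 182 CPM (0.63), though not with clusters at 1.5 times the resolution (−0.81). The Ifitm3 values of mature and immature neutrophils stayed above ctrl in both treated libraries, whereas in Il1b-high neutrophils both treated libraries lay below both ctrl libraries. Ifitm2 was higher in cycling preNeu (957 and 1024 against 489.6 and 517 CPM, log2 change 0.74) and in early precursors (649.8 and 645 against 430.3 and 390.3 CPM, 0.61), by 0.33 in immature neutrophils (2375 and 2382 against 1602 and 1539.6 CPM, or 0.61 with stage per cell and 0.65 with finer clusters), and nearly level in Il1b-high neutrophils, at 4346 and 4319.8 against 4267 and 4399 CPM.

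The sign of Ifitm6 in mature neutrophils and early precursors depended on how stages were set. It measured 5451 and 5452 CPM with IACS-70654 against 6064 and 5917 CPM with vehicle in immature neutrophils (log2 change −0.41) and 3364 and 3215 against 2264 and 2279 CPM in mature neutrophils (0.36). The mature value turned to −0.14 when stage was set per cell and to −0.81 with clusters at 1.5 times the resolution, while the immature one was −0.30 and −0.42. In early precursors the values were 349 and 369.7 against 274 and 238 CPM (0.45, or −0.045 with stage per cell and −1.59 with finer clusters), and in cycling preNeu 1566 and 1454 against 1549 and 1555 CPM, which overlapped. Scaling by total UMIs moved the median of all genes in this contrast by 0.27 in immature neutrophils, 0.23 in cycling preNeu and 0.17 in mature neutrophils. Ifitm2 in mature neutrophils turned from −0.033 to 0.14 under it, while Ifitm1, Ifitm3 and Ifitm6 kept their signs in mature and immature neutrophils. The sizes depend on the scaling. In CPM, Ifitm3 and Ifitm6 of immature neutrophils fell by less than their log2 changes of −0.48 and −0.41. Ifitm3 in cycling preNeu had a log2 change of −0.20, although both treated libraries lay above both vehicle libraries in CPM. With the finer clusters Ifitm1 was higher under IACS-70654 by 2.16 in mature and 2.19 in immature neutrophils and higher with vehicle than in ctrl by 1.65 and 1.02, so the size of these changes depended on the clusters as well.

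Across the 5 stages, 8 of 20 pairs lay past a log2 change of 0.5 upward with IACS-70654 (4 of Ifitm1, 2 of Ifitm2, 1 of Ifitm3 and 1 of Ifitm6) and 0 downward. Ifitm3 in Il1b-high neutrophils stood at the limit, and 1 pair lay past it downward with DESeq2's size factors or total UMIs, and 4 with finer clusters (Ifitm3 and Ifitm6 in mature neutrophils and in early precursors). Over all genes and these classes 14.5% lay past that fold upward and 11.6% downward, and in mature neutrophils 19.9% and 15.6%. Since the choice of the members used this contrast, nothing is read from the count.

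The UMIs of Ifitm1 per cell moved with the summed levels, although shares of cells with a UMI cannot tell more cells with Ifitm1 RNA from more UMIs in each. With every cell thinned to 1000 UMIs, mature neutrophils with 5 or more Ifitm1 UMIs were 2.70% and 2.45% of cells in ctrl, 34.8% and 33.2% under vehicle, and 59.6% and 62.6% under IACS-70654. Cells with 0 Ifitm1 UMIs were fewer in the same order, from 67.5% and 67.9% in ctrl to 28.1% and 30.04% in vehicle libraries and then 12.98% and 11.7% in treated ones. The median mature neutrophil had 0 Ifitm1 UMIs in ctrl, 2 with vehicle and 6 or 7 with IACS-70654. In a separate random thinning to the same depth, Ifitm6 UMIs were found in immature neutrophils in 94.2% and 94.9% of thinned cells in ctrl, 98.2% and 97.4% under vehicle and 96.5% and 96.6% under IACS-70654. T or NK cells, a lineage that should lack neutrophil genes, had Ifitm6 UMIs in 13.6% to 32.4% of thinned cells (46.2% to 66.7% unthinned). Median depths were 3599.5 to 5778 UMIs in T or NK cells, against 4844 to 7450.5 UMIs in immature neutrophils. The source of these Ifitm6 UMIs was not tested. Ifitm1 UMIs were found in 0% to 9.09% of thinned T or NK cells (22.2% to 30.1% unthinned), where the lowest, 0 of 23 cells, has an exact 95% interval up to 14.8%, against 30.4% to 87.9% of thinned mature neutrophils in that draw.

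Outside the neutrophils of CD45+ BM, Ifitm1 and Ifitm3 had other leading classes. Among vehicle libraries Ifitm3 was highest in monocytes, at 2568 and 2581 CPM, above every neutrophil stage, and Ifitm1 there was 142 and 144 CPM. Basophils (1389 and 1393 CPM) and stem and progenitor cells (1364 and 1008 CPM) followed the 2 late neutrophil stages for Ifitm1, and these neighbours in the order were closer to each other than to any other class. B cells, pDC and monocytes overlapped or nearly so in Ifitm1.

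Ifitm1 of stem and progenitor cells was 442 and 444 CPM in ctrl, 1364 and 1008 CPM under vehicle and 384 and 534 CPM under IACS-70654. It rose with vehicle (log2 change 1.44 ± 0.17 SE, adjusted p = 8.37e-04, lost without ctrl replicate 1 or 2 at log2 changes of 1.42 and 1.46) and fell with IACS-70654 (log2 change −1.44 ± 0.17 SE, adjusted p = 2.11e-04), so that vehicle libraries lay above the other 4. Ifitm3 in these cells, at 425 and 403 CPM in ctrl, 607 and 637 CPM under vehicle and 469 and 442 CPM under IACS-70654, was not called in either contrast (adjusted p = 0.0737 and 0.0588). Monocytes rose in Ifitm1 with vehicle, at 74.1 and 71.2 CPM in ctrl and 142 and 144 CPM with vehicle (log2 change 0.96 ± 0.084 SE, adjusted p = 2.33e-08), and did not follow with IACS-70654, at 139.8 and 161 CPM (log2 change 0.090, adjusted p = 0.414). Neutrophil marker RNA in monocytes was 15769.5 and 17544 CPM in ctrl, 26479 and 19602 CPM with vehicle and 24373 and 29336 CPM with IACS-70654. Ifitm1 per 1000 UMIs of S100a8 and S100a9, which encode abundant neutrophil proteins, was 5.97 and 4.96 in ctrl monocytes and 6.44 and 8.84 in vehicle monocytes, while all kept cells together had 1.23 and 1.26 in ctrl and 3.81 and 3.68 with vehicle. The part of this RNA in the monocyte change was not tested. Ifitm3 in monocytes, at 2727 and 2863 CPM in ctrl, 2568 and 2581 CPM under vehicle and 2479 and 2373 CPM under IACS-70654, and Ifitm2, at 964 and 959 CPM in ctrl, 1022 and 1064 CPM under vehicle and 971 and 1017 CPM under IACS-70654, stayed inside the fold limit in both contrasts. Ifitm6 of monocytes was 509.5 and 524 CPM in ctrl, 496 and 455 CPM under vehicle and 359.5 and 383 CPM under IACS-70654, with a log2 change of −0.35 under IACS-70654 (adjusted p = 3.09e-06) that was under the fold limit.

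Plasmacytoid dendritic cells (pDC), a main source of type I interferon, rose in Ifitm3 with IACS-70654, at 252 and 408 CPM in ctrl, 300.4 and 282 CPM under vehicle and 639.8 and 812 CPM under IACS-70654 (log2 change 1.31 ± 0.17 SE, adjusted p = 9.57e-06). Treated libraries lay above all 4 others, and the call held in each of the 6 fits that left out 1 library. Summed neutrophil marker RNA in pDC was 22009 and 12158 CPM in ctrl, 28182 and 26321 CPM with vehicle and 25106 and 36555 CPM with IACS-70654, and Ifitm3 per 1000 UMIs of S100a8 and S100a9 was 14.6 and 40.7 in ctrl, 13.3 and 13.8 under vehicle and 31.9 and 27.7 under IACS-70654, so that 1 ctrl library lay above both treated ones. Ifitm1 of pDC (88.2 and 59.8 CPM in ctrl, 266 and 135 CPM under vehicle and 190 and 293 CPM under IACS-70654) was not called (adjusted p = 0.0333 for vehicle and 0.517 for IACS-70654).

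B cells were higher in all 4 members with vehicle than in ctrl, led by Ifitm1 at 71.9 and 90.1 CPM in ctrl and 288 and 250.6 CPM with vehicle (log2 change 1.74, adjusted p = 4.20e-12). Ifitm2, Ifitm3 and Ifitm6 had log2 changes of 0.86, 0.62 and 0.91 (adjusted p = 8.04e-07, 3.91e-04 and 2.04e-04). The call of Ifitm3 was lost without ctrl replicate 1 (0.53) and by DESeq2 (0.63), and that of Ifitm6 by DESeq2 (0.92), with values of 0.52 to 1.44 without 1 library. With IACS-70654 Ifitm1 (log2 change 2.33, adjusted p = 8.00e-14), Ifitm2 (1.62, adjusted p = 6.24e-10) and Ifitm3 (0.91, adjusted p = 0.00167) were called higher, on 1 treated library of 27 cells (1314, 1029.9 and 510 CPM), because the other held 16 cells and was left out. The spread in this fit comes from the ctrl and vehicle libraries, and the lone treated library is assumed to vary like them, so these values have no replicate check under IACS-70654. Ifitm3 was not called by DESeq2 (0.93) or without the upper limit on genes (0.40). Most vehicle B cells lay in cluster 11 (231 cells), whereas treated ones were split between cluster 25 (20 cells), which had markers of B cell progenitors, and cluster 11 (17 cells). A further cluster that scored highest for the B cell list (104 treated, 10 vehicle and 237 ctrl cells) was left unnamed because of its leading genes, so the class leaves out most treated cells that scored as B cells. Without the cells of highest doublet score, the treatment changes of Ifitm1 and Ifitm3 were 0.77 and 0.74 and no longer called. Neutrophil marker RNA in B cells moved the same way, from 29432 and 39638 CPM in ctrl to 51427 and 56517 CPM with vehicle and 75892 CPM with IACS-70654, and its part in the result was not tested.

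T or NK cells, few in the tumor-bearing groups (27 and 23 cells with vehicle, 34 and 39 with IACS-70654), were called in Ifitm2 and Ifitm6 with vehicle (log2 changes 1.29 and 1.78, adjusted p = 0.00781 and 4.28e-04), the former lost without ctrl replicate 2, by DESeq2 and with scaling by total UMIs. Neutrophil marker RNA in this class was 34769 and 19073 CPM in ctrl and 85968 and 80496 CPM with vehicle, and its part in the result was not tested. With IACS-70654 Ifitm1 rose from 9 and 10 UMIs (45.4 and 62.2 CPM) to 48 and 44 UMIs (293 and 224 CPM; log2 change 2.21 ± 0.33 SE, adjusted p = 7.99e-04, lost without IACS-70654 replicate 1 at a log2 change of 2.01), while the marker RNA was 30741 and 32991 CPM. Ifitm1 per 1000 S100a8 and S100a9 UMIs in T or NK cells was 0.69 and 0.95 in the vehicle libraries, where all kept cells together had 3.81 and 3.68, and 11.0 and 8.36 in the treated libraries, where they had 10.1 and 10.2. Basophils, which store histamine, had Ifitm1 at 1789.7 and 1428 CPM in ctrl, 1389 and 1393 CPM under vehicle and 1220.3 and 667 CPM under IACS-70654 and no call in either contrast.

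In the 6 classes outside the neutrophils, IACS-70654 against vehicle gave 5 pairs called higher and 1 lower of 24, with 7 and 7 at an unadjusted p under 0.05 and 4 and 1 by DESeq2. Of the 5, the 3 in B cells rest on 1 treated library, and the others were Ifitm3 in pDC and Ifitm1 in T or NK cells. The background was 0.934% higher and 1.73% lower over all genes of these classes. Ifitm6 had 0 calls, with 1 higher and 2 lower at an unadjusted p under 0.05 and none by DESeq2.

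**Figure D2:**
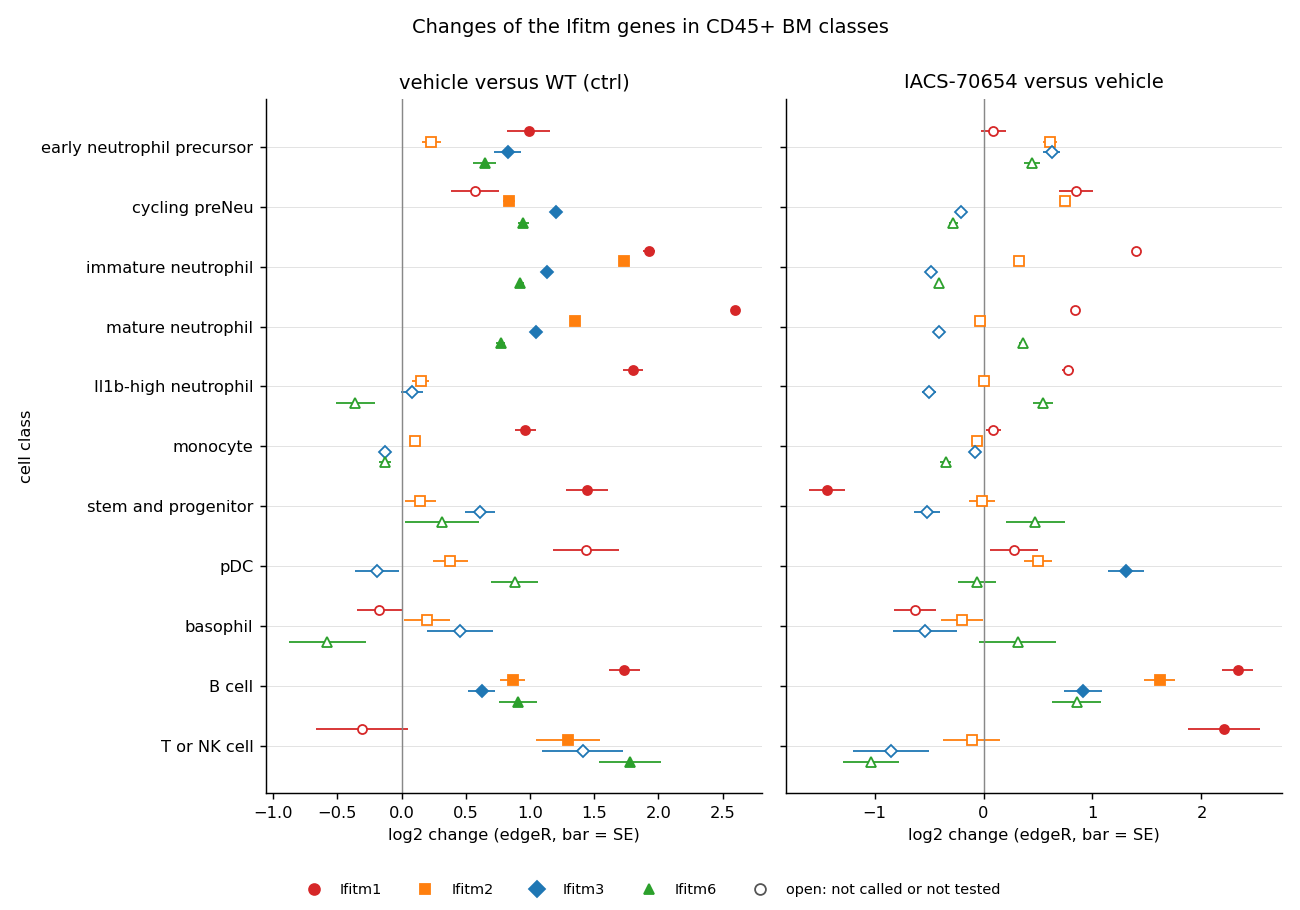
Log2 change of each member (points, with SE bars) in the 11 classes of CD45+ BM for vehicle against ctrl and IACS-70654 against vehicle, where filled points were called and open points were not called or, for IACS-70654 in neutrophils, not tested. Ifitm1 lies at 2.60 for vehicle in mature neutrophils, and for IACS-70654 it lies at −1.44 in stem and progenitor cells and at 1.40 in immature neutrophils.

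The c-Kit+ libraries hold hematopoietic stem and progenitor cells (HSPCs), from which neutrophils arise. Their granulocytic class shares markers such as Elane and Ms4a3 with the early precursors of the CD45+ libraries. Of these classes HSC had the highest Ifitm3 in every library and the highest Ifitm1 in tumor-bearing mice, whereas in both ctrl libraries Ifitm1 was higher in basophil or mast progenitors (1851 and 2184 CPM) than in HSC (1479 and 1459 CPM). In vehicle libraries Ifitm1 measured 2334 and 2359 CPM in HSC, 1547 and 1640.2 CPM in cells with markers of both HSC and multipotent progenitors (MPP), 999 and 1051 CPM in MPP, 471 and 474 CPM in lymphoid-primed, 263 and 286 CPM in monocyte, 189 and 209.5 CPM in granulocytic and 96.0 and 81.0 CPM in erythroid progenitors. Basophil or mast progenitors, at 2070.2 and 2144 CPM, stood close below HSC, and these ranges along the series did not overlap.

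Ifitm3 was 1241 and 1263 CPM in HSC of the vehicle libraries and 819 and 786 CPM in megakaryocyte progenitors, which overlapped the 778 and 816 CPM of the HSC or MPP class. In granulocytic progenitors it was 205 and 209.7 CPM. Ifitm2 varied less, with 742 and 744 CPM in HSC, 699 and 719 CPM in MPP and 409 and 410.1 CPM in erythroid progenitors. Ifitm6 was near 0 throughout the c-Kit+ classes: monocyte progenitors, with 11.2 and 10.8 CPM in ctrl, 9.39 and 8.82 CPM under vehicle and 6.86 and 8.57 CPM under IACS-70654, were among the highest, and HSC had 1 and 2 UMIs in ctrl and none in the 4 libraries of tumor-bearing mice.

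**Figure D3:**
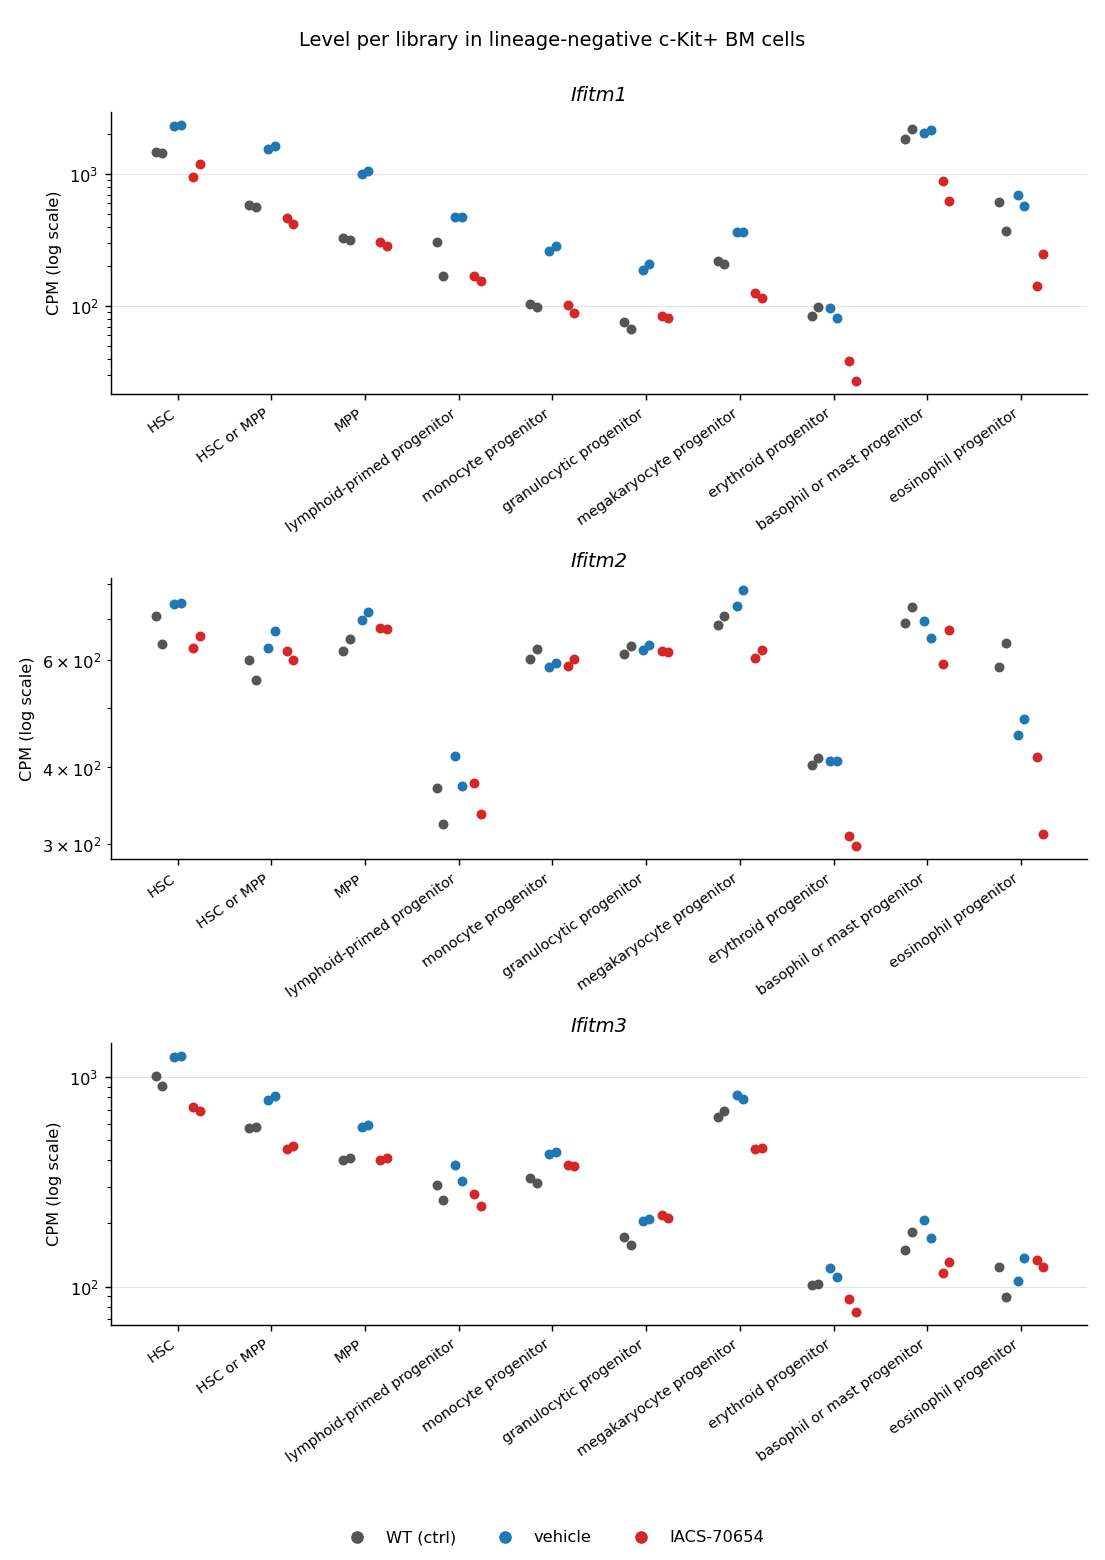
Level of Ifitm1, Ifitm2 and Ifitm3 (CPM, log axis) in the 10 larger c-Kit+ classes, with 1 point per library colored by group (WT ctrl, vehicle and IACS-70654). Ifitm1 is highest in HSC and in basophil or mast progenitors, and in MPP the vehicle points (999 and 1051 CPM) stand above both ctrl (330 and 316 CPM) and IACS-70654 (305 and 288 CPM).

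Between ctrl and vehicle, Ifitm1 rose in 7 c-Kit+ classes, and no other member was called in any. MPP had the highest fold, at 329.6 and 316 CPM in ctrl and 999 and 1051 CPM with vehicle, or 3.06-fold (log2 change 1.61 ± 0.049 SE, adjusted p = 1.70e-42). The HSC or MPP class followed, at 589 and 561 CPM in ctrl and 1547 and 1640.2 CPM with vehicle (log2 change 1.43 ± 0.058 SE, adjusted p = 5.18e-56). Vehicle libraries lay above ctrl without overlap in both, and in HSC, at 1479 and 1459 CPM in ctrl and 2334 and 2359 CPM with vehicle (log2 change 0.63 ± 0.067 SE, adjusted p = 2.38e-17).

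Granulocytic progenitors, which give rise to neutrophils, had Ifitm1 at 75.7 and 67.1 CPM in ctrl and 189 and 209.5 CPM with vehicle (log2 change 1.41, adjusted p = 7.12e-29), and monocyte progenitors at 103 and 97.8 CPM in ctrl and 263 and 286 CPM with vehicle (log2 change 1.40, adjusted p = 3.88e-26). Megakaryocyte and lymphoid-primed progenitors rose by log2 changes of 0.73 and 0.93 (adjusted p = 3.46e-16 and 2.03e-07). The lymphoid-primed ctrl replicates were far apart, at 305 and 169 CPM, and the change was not called by DESeq2 (0.97). Not called were erythroid (84.7 and 98.0 CPM in ctrl and 96.0 and 81.0 CPM with vehicle, adjusted p = 0.981), basophil or mast (1851 and 2184 CPM in ctrl and 2070.2 and 2144 CPM with vehicle, adjusted p = 0.605) and eosinophil progenitors (617 and 372 CPM in ctrl and 690.4 and 573 CPM with vehicle, adjusted p = 0.827). Ifitm3 was higher with vehicle by less than the fold limit in HSC, HSC or MPP, MPP and monocyte progenitors (log2 changes 0.34, 0.44, 0.47 and 0.39; adjusted p = 0.00490, 4.93e-08, 8.71e-12 and 2.53e-10).

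In all, 39 of 48 pairs of a member and a c-Kit+ class passed the filter on low counts, and 7 were called higher and 0 lower, with 18 and 2 at an unadjusted p under 0.05 and 6 and 0 by DESeq2. Over all genes and c-Kit+ classes 0.478% were called higher and 0.272% lower with vehicle. Ifitm6 passed the filter in 3 of 12 classes, without a call or an unadjusted p under 0.05 in either direction.

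With IACS-70654, Ifitm1 fell in all 10 larger progenitor classes. In MPP the level fell to 305 and 288 CPM from 999 and 1051 CPM with vehicle (log2 change −1.78 ± 0.042 SE, adjusted p = 1.07e-49), which is below both ctrl libraries (329.6 and 316 CPM). HSC fell to 952 and 1186 CPM (log2 change −1.20 ± 0.066 SE, adjusted p = 1.59e-68) and the HSC or MPP class to 462 and 418 CPM (log2 change −1.88 ± 0.048 SE, adjusted p = 9.43e-87), both also under their ctrl libraries. No treated library overlapped a vehicle library in these classes.

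Among committed progenitors Ifitm1 measured 75.7 and 67.1 CPM in ctrl, 189 and 209.5 CPM under vehicle and 84.1 and 81.8 CPM under IACS-70654 in granulocytic progenitors (log2 change −1.30 with IACS-70654, adjusted p = 2.01e-41) and 103 and 97.8 CPM in ctrl, 263 and 286 CPM under vehicle and 102 and 88.3 CPM under IACS-70654 in monocyte progenitors (−1.52, adjusted p = 6.17e-28). Treated libraries were near ctrl in both. Classes without a call in tumor-bearing mice fell as well: basophil or mast progenitors to 888 and 624 CPM (−1.54), erythroid progenitors to 38.2 and 27.1 CPM (−1.41) and eosinophil progenitors to 141 and 249 CPM (−1.85, lost without IACS-70654 replicate 1 at −1.47), with adjusted p = 1.32e-29, 8.39e-14 and 5.79e-07. Megakaryocyte and lymphoid-primed progenitors had log2 changes of −1.66 and −1.62 (adjusted p = 5.58e-39 and 3.63e-19). In 3 of these classes the cluster with the highest number of cells differed between vehicle and treated libraries: cluster 3 (1279 vehicle cells) and cluster 7 (1022 treated cells) of granulocytic, cluster 11 (709) and cluster 16 (284) of basophil or mast, and cluster 13 (260) and cluster 8 (734) of megakaryocyte progenitors. Neutrophil marker RNA was 1398 and 1719 CPM under vehicle and 5154 and 5877 CPM under IACS-70654 in granulocytic progenitors, and 70.0 and 55.0 CPM and then 847 and 853 CPM in monocyte progenitors, where its part in the Ifitm1 values was not tested.

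Ifitm3 fell in 7 classes. HSC went from 1241 and 1263 CPM with vehicle to 723 and 689 CPM with IACS-70654 (log2 change −0.85 ± 0.077 SE, adjusted p = 8.59e-25), and megakaryocyte progenitors from 819 and 786 to 453 and 458 CPM (log2 change −0.90 ± 0.046 SE, adjusted p = 4.30e-32). The HSC or MPP class (−0.83) and basophil or mast progenitors (−0.80) changed by similar amounts. MPP (−0.52), lymphoid-primed (−0.52) and erythroid progenitors (−0.52) were just past the fold limit, and each lost its call in at least 1 fit without a library. The MPP call was also lost without the filter on low counts, and the lymphoid-primed one by DESeq2, with scaling by total UMIs and without the upper limit on genes. In granulocytic progenitors Ifitm3 was 172 and 157 CPM in ctrl, 205 and 209.7 CPM under vehicle and 219 and 213 CPM under IACS-70654 (log2 change 0.0058 ± 0.034 SE, adjusted p = 0.925). Ifitm2 was lower by less than the limit in erythroid (−0.43, adjusted p = 7.39e-11) and megakaryocyte progenitors (−0.37, adjusted p = 4.28e-11).

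With IACS-70654 the c-Kit+ libraries gave 17 pairs called lower (10 of Ifitm1 and 7 of Ifitm3) and 0 higher among 42 that passed the filter of 52 in all, with 28 and 1 at an unadjusted p under 0.05 and 16 and 0 by DESeq2. The background was 2.92% lower and 1.94% higher. Ifitm1 had opposite signs in immature neutrophils of the CD45+ libraries (1.40) and granulocytic progenitors of the c-Kit+ libraries (−1.30), a difference that was not itself tested. The first value belongs to the contrast that chose the members, so it is a description. The log2 change of Ifitm1 in early precursors of the CD45+ libraries was 0.090. Neutrophil marker RNA stayed at or below 5877 CPM in every c-Kit+ class and under 94 CPM in HSC and MPP.

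**Figure D4:**
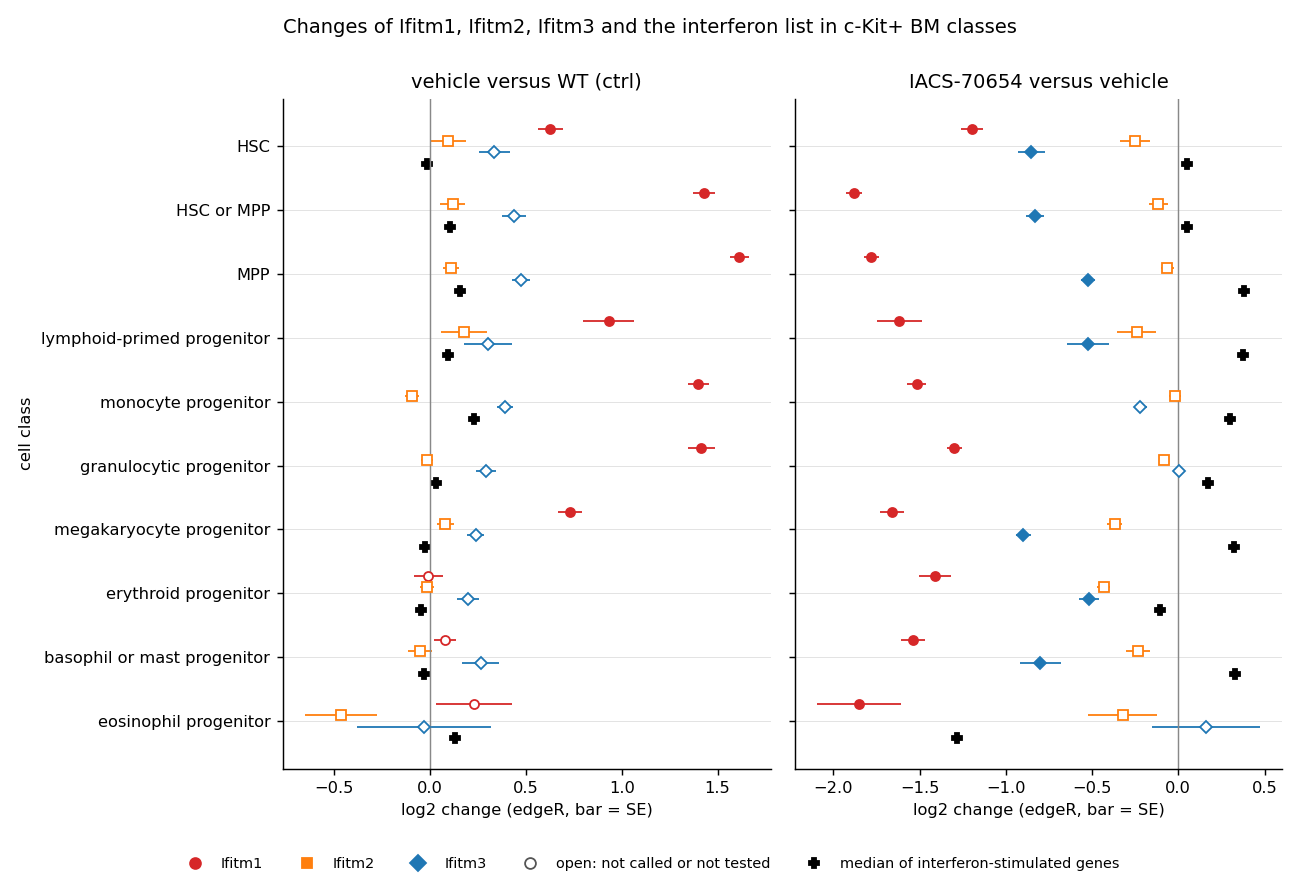
Log2 change (points, with SE bars) of Ifitm1, Ifitm2 and Ifitm3 in the c-Kit+ classes for vehicle against ctrl and IACS-70654 against vehicle, with a black plus at the median of the interferon-stimulated genes in the same class. In MPP Ifitm1 lies at 1.61 and then at −1.78, while the median of the interferon list under IACS-70654 is 0.38.

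The members were set beside 40 other interferon-stimulated genes, 38 of which are in the files, chosen as textbook targets of interferon with earlier results of these data known. In mature neutrophils with vehicle, 17 of the 36 that passed the filter rose against ctrl and 0 fell, against 5.04% and 4.09% of all genes, with a median log2 change of 0.56 against 0.00 for all genes. Those with the smallest p were Ifi27l2a (log2 change 0.89), Trim30a, a regulator of innate immune signalling (1.07), and Rtp4 (0.68; adjusted p = 1.57e-23, 1.70e-19 and 7.37e-13). Each had a smaller log2 change than Ifitm1 (2.60) and Ifitm2 (1.35) in the same cells. In immature neutrophils 10 rose and 1 fell, against 4.97% and 4.19% of all genes, with a median of 0.32. Under IACS-70654 the list lay the other way from Ifitm1 in the late stages, as a description: the median was −0.26 in mature, −0.17 in immature and −0.57 in Il1b-high neutrophils, where 1 gene lay past the fold upward and 19 downward, against 15.3% and 13.4% of all genes in that class.

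In progenitors calls of the list and of the members were as follows, without a test of the difference between them. With vehicle, 0 of 291 pairs of a listed gene and a c-Kit+ class were called higher and 1 lower, with 25 and 12 at an unadjusted p under 0.05 and 0 and 0 by DESeq2, and Ifitm1 rose in 7 classes. The median of the list was 0.16 in MPP, 0.10 in the HSC or MPP class and 0.23 in monocyte progenitors, which is the direction of Ifitm1. With IACS-70654, 37 of 294 pairs were called higher and 15 lower, against 1.94% and 2.92% of all genes, while no member was called higher. By DESeq2 the counts were 5 higher and 8 lower, so the leaning of the list depended on the tool. In MPP 10 of 34 rose, among them Ifi27l2a (1.29, adjusted p = 6.46e-17), Rtp4 (1.15) and Oasl2, a relative of the antiviral oligoadenylate synthetases (1.44), and 1 fell, the guanylate-binding protein gene Gbp3 (−0.99), against a background of 2.14% higher and 2.95% lower in that class. In monocyte progenitors 10 rose and 1 fell, against 2.78% and 2.9%, and in HSC neither direction had a call. The higher count was reduced to 12 pairs without vehicle replicate 1 and to 20 without IACS-70654 replicate 1.

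Over CD45+ classes with vehicle, 31 of 304 pairs of the list were called higher and 7 lower, against 1.65% and 1.27% of all genes, with 24 and 3 by DESeq2 and 19 higher with finer clusters. Monocytes had 0 higher and 6 lower, against 0.552% and 0.41% of all genes, among them the antiviral genes Rsad2 (−2.45), Ifit1 (−1.58) and Ifit2 (−1.33), where Ifitm1 rose by 0.96, from 74.1 and 71.2 CPM, and neutrophil marker RNA was higher too, at 15769.5 and 17544 CPM in ctrl and 26479 and 19602 CPM with vehicle. With IACS-70654 monocytes had 7 higher, including Oasl2 (1.21), and 1 lower, Ly6e (−0.51), where no member was called and 2.36% and 3.37% of all genes were. The 6 classes outside the neutrophils together had 12 higher and 5 lower of 138 pairs, against 0.934% and 1.73% of all genes, and 5 and 5 by DESeq2.

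Of 17 genes of interferon receptors, JAK–STAT signalling and interferon regulatory factors, Socs3 moved most widely between ctrl and vehicle. Socs3, which encodes a STAT-induced inhibitor of cytokine receptors, rose with vehicle in mature (log2 change 1.67), immature (2.23) and Il1b-high neutrophils (0.92) and monocytes (1.74), and in the HSC or MPP (2.29) and MPP classes (1.87), all classes in which Ifitm1 rose. Adjusted p-values ranged from 2.55e-23 to 0.00203. In mature neutrophils 3 of the 17 were called higher and 0 lower with vehicle, against 5.04% and 4.09% of all genes, the others being Ifngr1, a chain of the receptor for interferon gamma (0.85), and the transcription factor gene Irf7 (0.71). Under IACS-70654 Irf7 rose in monocyte (1.57) and megakaryocyte progenitors (1.45), where Ifitm1 fell.

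Of 8 relatives listed, Ifitm5, Ifitm7, Ifitm10 and Tmem91 passed the filter in at least 1 class. Ifitm7, which lies on chromosome 16, fell with vehicle in granulocytic (log2 change −0.63) and monocyte progenitors (−0.85), where Ifitm1 rose, and with IACS-70654 in granulocytic progenitors (−0.85). Among the 6 nearest genes on each side of the cluster, 7 passed the filter in some class, and Pkp3, which encodes the desmosomal protein plakophilin 3, was the one with calls: it rose with IACS-70654 in granulocytic progenitors (1.74), the HSC or MPP class (1.41), erythroid (1.18) and monocyte progenitors (1.05), MPP (0.94) and CD45+ monocytes (1.08). In the progenitor classes this was opposite in sign to Ifitm1.

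Genes whose levels followed each member most closely were ranked by Pearson's r of log2(CPM + 1), as a description over sums that share libraries and depth. Over 65 class and library sums of CD45+ BM, Ifitm1 was closest to Ier3, an immediate early gene (r = 0.89), Por (0.84), Rufy4 (0.825), Snap23 and Rb1cc1. Ifitm6 was closest to Cd177 (0.91), Ly6g (0.91), Atxn10 (0.90), Lcn2 (0.90) and Ceacam10 (0.89), which include surface and secondary granule genes of maturing neutrophils. Ly6g and Lcn2 were among the markers that named the immature stage, and Ifitm6 was chosen for that stage, so this likeness is no independent result. For Ifitm2 the list was led by Sbno2 (0.88), Rab31, Eif4ebp1, Card19 and Gabarap, and for Ifitm3 by Milr1 (0.83), Ap1s2, Wdfy3, Rnpep and Pira2. Between members r was 0.78 for Ifitm1 and Ifitm2, 0.72 for Ifitm2 and Ifitm3, 0.63 for Ifitm3 and Ifitm6 and 0.09 for Ifitm1 and Ifitm6. Over 75 sums of the c-Kit+ libraries Ier3 again led for Ifitm1 (0.83), and Mettl7a1 (0.78), Krt18 and Zfp521 were also close, while Aldh2 (0.89) led for Ifitm2 and Ghr (0.80) for Ifitm3.

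In 2208L tumors, with 1 library per condition, differences have no replicate check, and intervals are exact and cover counting error only. Tumor-associated neutrophils (TANs) had high Ifitm1 in all 4 libraries, at 2977 CPM with vehicle, 3121 CPM with IACS-70654, 3013 CPM with anti–PD-1 and 2626 CPM with the combination. Log2 ratios to vehicle were 0.068 (95% interval −0.040 to 0.18) for IACS-70654, 0.018 (95% interval −0.071 to 0.11) for anti–PD-1 and −0.18 (95% interval −0.29 to −0.070) for the combination, and none reached the fold limit. Ifitm2 of TANs was 2804 CPM with vehicle, 3115 CPM with IACS-70654, 2700.3 CPM with anti–PD-1 and 3408 CPM with the combination, and Ifitm3 lay between 1984 and 2190 CPM. Ifitm6 of TANs was low and varied, at 121 CPM with vehicle, 40.5 CPM with IACS-70654, 318 CPM with anti–PD-1 and 42.4 CPM with the combination (73, 15, 256 and 17 UMIs in 468, 245, 555 and 308 cells). Its log2 ratios were −1.58 (95% interval −2.49 to −0.76), 1.40 (95% interval 1.01 to 1.79) and −1.51 (95% interval −2.37 to −0.74). Summed levels were thus lower in both libraries with IACS-70654 and higher with anti–PD-1 alone. Thinned TANs without an Ifitm6 UMI were 94.97% with vehicle, 96.98% with IACS-70654, 93.13% with anti–PD-1 and 94.98% with the combination. Few thinned TANs therefore held an Ifitm6 UMI, and the combination share was almost that of vehicle despite its lower summed level. How the summed UMIs spread over cells was not tested. The summed neutrophil markers of TANs were 33512, 26779, 37970 and 18247 CPM in the same order of conditions.

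In tumor cells Ifitm3 was 1261 CPM with vehicle, 1874 CPM with IACS-70654, 1257 CPM with anti–PD-1 and 1993 CPM with the combination. Both libraries with IACS-70654 were higher than both without, with log2 ratios of 0.57 (95% interval 0.53 to 0.61) and 0.66 (95% interval 0.62 to 0.70), and anti–PD-1 alone gave −0.0046 (95% interval −0.048 to 0.039). Tumor cells were led by cluster 10 with vehicle (102 cells) and anti–PD-1 (151 cells) and by cluster 5 with IACS-70654 (239 cells) and the combination (348 cells), so that different clusters are compared. Ifitm2 in these cells was 596 CPM with vehicle, 469 CPM with IACS-70654, 568 CPM with anti–PD-1 and 489 CPM with the combination, the other way round, and Ifitm1 lay between 10.4 and 16.2 CPM. Fibroblasts, at 2968 CPM with vehicle, 2776 CPM with IACS-70654, 3282 CPM with anti–PD-1 and 3113 CPM with the combination, had more Ifitm3 than tumor cells in each library.

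Tumor monocytes had the highest Ifitm3 of the tumor myeloid classes, at 3755 CPM with vehicle, 2929.8 CPM with IACS-70654, 4066 CPM with anti–PD-1 and 3028 CPM with the combination. All 4 members were lower in tumor monocytes of the 2 libraries with IACS-70654 than of vehicle, with Ifitm1 at 134 CPM with vehicle, 88.1 CPM with IACS-70654, 178 CPM with anti–PD-1 and 76.3 CPM with the combination (log2 ratios −0.61 (95% interval −0.93 to −0.27) and −0.81 (95% interval −1.14 to −0.47)), and with Ifitm6 at 102 CPM with vehicle, 20.6 CPM with IACS-70654, 121 CPM with anti–PD-1 and 22.2 CPM with the combination and log2 ratios of −2.31 (95% interval −2.77 to −1.86) and −2.20 (95% interval −2.64 to −1.76). Neutrophil marker RNA in this class was 191, 141, 690.2 and 385 CPM. Tumor-associated macrophages (TAMs) measured 1090.1 CPM with vehicle, 814 CPM with IACS-70654, 1018 CPM with anti–PD-1 and 803 CPM with the combination for Ifitm2 and 1134 CPM with vehicle, 1201 CPM with IACS-70654, 903 CPM with anti–PD-1 and 1293 CPM with the combination for Ifitm3, and Ifitm1 was 40.1 CPM with vehicle, 19.7 CPM with IACS-70654, 60.4 CPM with anti–PD-1 and 21.5 CPM with the combination (log2 ratios −1.03 (95% interval −1.28 to −0.77) for IACS-70654 and −0.90 (95% interval −1.16 to −0.64) for the combination). TAMs, too, were led by cluster 4 with vehicle (287 cells) and anti–PD-1 (231 cells) and by cluster 1 with IACS-70654 (1014 cells) and the combination (909 cells). Dendritic cells had Ifitm1 at 848 CPM with vehicle, 185 CPM with IACS-70654, 1284 CPM with anti–PD-1 and 261 CPM with the combination, in 29, 115, 34 and 108 cells, with log2 ratios of −2.19 (95% interval −2.56 to −1.83) and −1.70 (95% interval −2.04 to −1.36) for the libraries with IACS-70654.

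Over all tumor classes, IACS-70654 gave 3 ratios past the fold upward and 8 downward of 24, anti–PD-1 gave 5 and 3 of 27, and the combination 3 and 8 of 25. With TMM scaling the upward count for IACS-70654 was smaller, as given below. Over all genes with a ratio the shares were 17.3% and 13.8%, 10.5% and 10.2%, and 17.4% and 13.8%.

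**Figure D5:**
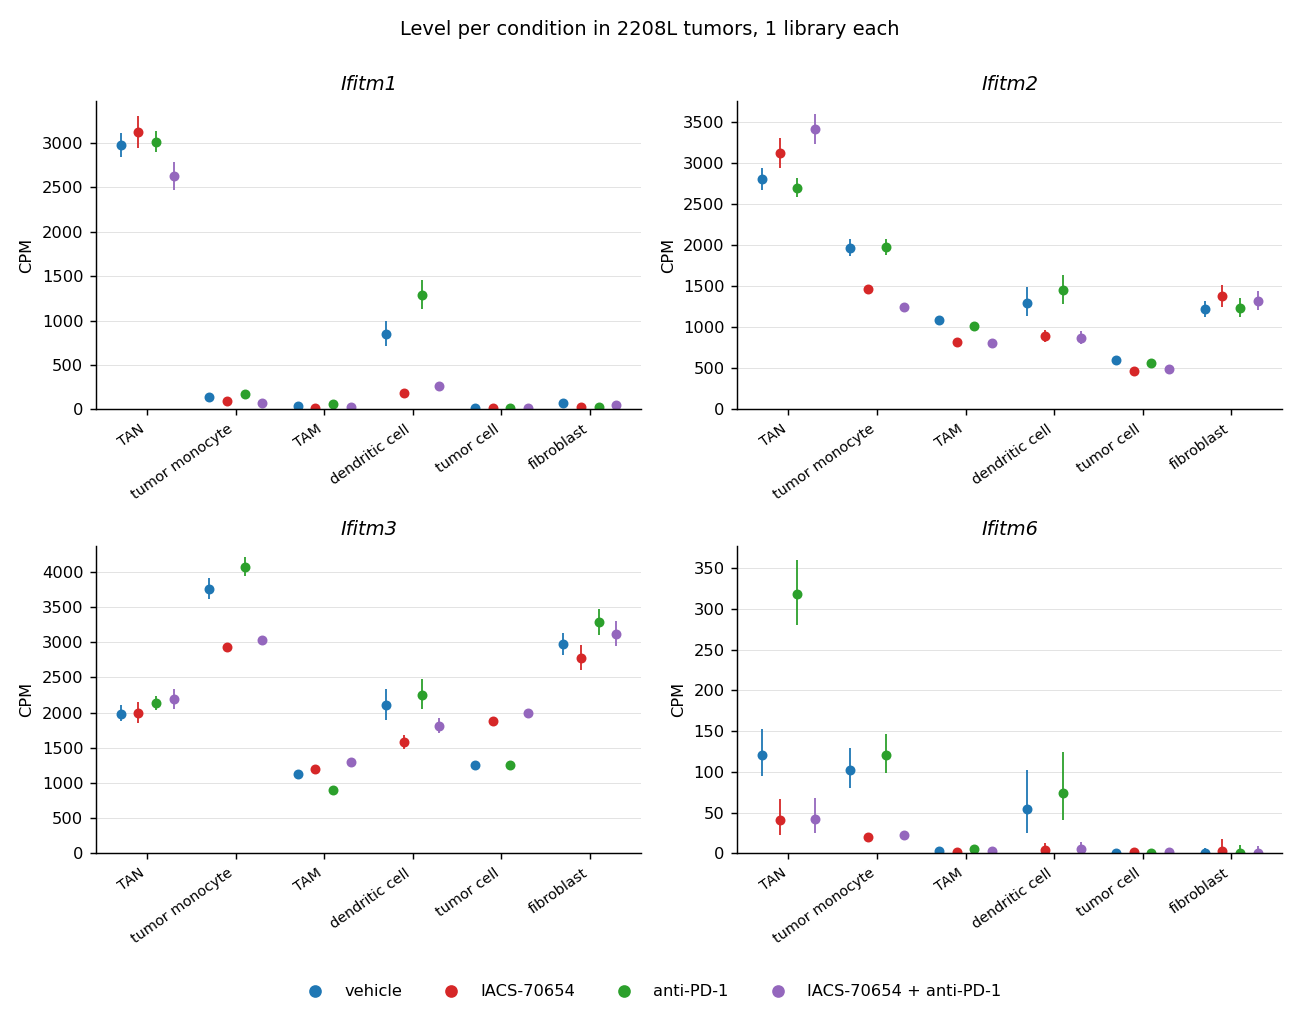
Level of each member (CPM, linear axis from 0) in 6 classes of the 2208L tumor libraries, 1 library per condition, with exact 95% Poisson intervals that cover counting error only. TANs hold the most Ifitm1 (2626 to 3121 CPM), and Ifitm3 of tumor cells is higher in both libraries with IACS-70654 (1874 and 1993 CPM) than in the others (1261 and 1257 CPM).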

How the data were processed

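The counts analysed were UMI count matrices deposited by the authors for 16 libraries, made with Cell Ranger (7.2.0 for BM and 7.1.0 for tumors, per the file headers) on mm10. They are raw counts per feature and cell, and antibody or multiplexing tags were not used. Cells with 200 to 6000 genes and at most 10% mitochondrial UMIs were kept. Each sort was clustered with scikit-learn 1.9.0 and leidenalg 0.10.2 (2000 variable genes without the members and interferon genes, 30 components, 20 neighbors, Leiden resolution 1.0, and 0.8 within neutrophils), and clusters were named from marker lists.

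UMIs were summed per library and class with at least 20 cells and tested with edgeR 4.0.16 (quasi-likelihood, filterByExpr, TMM, Benjamini-Hochberg) in R 4.3.3, with all 6 libraries of a sort in 1 fit and no pairing. Tumor libraries were compared by counts alone, with exact 95% intervals. CPM were computed from these sums. The fitted test was checked before use on simulated counts in which genes that passed the filter were changed by 1 on the log2 scale. It called 47% of them in mature neutrophils and 55.5% in MPP, with 1 false call in each. A gene that was not called may therefore still have changed. Depth ranged from 4113 to 9512 median UMIs per kept cell. A share or level of 0 allows up to 3 counts, and intervals cover counting error only.

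The members and lists were chosen with earlier results of these data known. Named genes were the 4 members, at most 3 called genes per direction with the smallest adjusted p of each list, the 5 genes most like each member among those reaching 50 CPM in a class, and neighbours and relatives by name. Some genes that this rule selects are not reported here. Alternatives were DESeq2 1.42.0, other scaling, no filter, no upper gene limit, finer clusters (1.5 times the resolution), stage per cell, a replicate block and leaving out each library. Doublets were kept. Since the threshold of scrublet (in scanpy 1.11.5) marked from 0.026% of cells in a library, leaving out the 5% of cells with the highest scores was added after the data were seen. Promoters and positions came from RefSeq and GENCODE tables of the same build.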

Additional observations from a re-analysis of the deposited data

Results flagged for a closer look

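Under IACS-70654 against vehicle, 3 members moved in opposite directions in different classes, with every treated library on one side of every vehicle library in each class. The classes shown were picked for these values, and the share of all genes that would be flagged this way was not counted. The differences between the classes were not tested. Ifitm1 had a log2 change of 2.21 in T or NK cells of the CD45+ libraries, on 9 and 10 UMIs with vehicle, and −1.88 in the HSC or MPP class of the c-Kit+ libraries. Ifitm3 had 1.42 in c-Kit+ plasma cells, where it was not called (adjusted p = 0.273 in edgeR's quasi-likelihood test) and rested on 9 to 37 UMIs per library, and −0.90 in megakaryocyte progenitors. For Ifitm6 the values were 0.55 in Il1b-high neutrophils, which belong to the contrast that chose the members, and −1.04 in T or NK cells, which was not called. Neutrophil marker RNA in T or NK cells was also lower with IACS-70654, at 30741 and 32991 CPM against 85968 and 80496 CPM with vehicle, and its part in the Ifitm6 value was not tested.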

How the results depend on the processing

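Of the tests of single members under the alternatives, 623 kept their direction and side of the threshold for vehicle against ctrl in CD45+ classes (27 gained and 10 lost a call), 336 for IACS-70654 outside the neutrophils (15 gained, 5 lost), 519 for vehicle in c-Kit+ classes (3 gained, 1 lost) and 551 for IACS-70654 in c-Kit+ classes (11 lost). In neutrophils, where IACS-70654 was not tested, 246 values moved by less than the replicate spread and 52 moved more. A change of sign was seen in 22, of which 2 had lain past the fold limit and 20 under it.

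The 2 past the limit were Ifitm1 in cycling preNeu, at −0.083 without IACS-70654 replicate 2 (0.85 with it, and at most 1.32 without another library), and Ifitm3 in early precursors, at −0.81 with clusters at 1.5 times the resolution (0.63 otherwise). Among those under it, Ifitm6 went from 0.36 to −0.14 with stage per cell and −0.81 with the finer clusters in mature neutrophils, and from 0.45 to −0.045 and −1.59 in early precursors. In tumor T or NK cells Ifitm1 under IACS-70654 turned from 1.47 to −0.13 without the upper limit on genes. The cause was not tested.

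Counts of member calls outside the neutrophils under IACS-70654 went from 5 to 3 higher without the highest doublet scores (2 to 7 without 1 library) and from 1 to 2 lower without the filter on low counts, without the highest doublet scores, or with the replicate block (1 to 2 without 1 library). Neutrophil values past the fold downward went from 0 to 1 with DESeq2, its size factors, total UMIs, the highest doublet scores left out or stage per cell, to 4 with finer clusters, and to 1 or 2 without 1 library. Tumor ratios past the fold upward with IACS-70654 went from 3 to 1 with TMM scaling.

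Interferon-stimulated genes called higher with vehicle in CD45+ classes went from 31 to 19 with finer clusters (25 to 33 without 1 library) and lower from 7 to 3 with DESeq2 (4 to 8). Outside the neutrophils under IACS-70654 the higher count went from 12 to 5 with DESeq2 (8 to 13 without 1 library), and the lower count of 5 ranged from 2 to 8. In c-Kit+ classes with vehicle the lower count went from 1 to 0 with DESeq2 (0 to 1), and with IACS-70654 the higher count went from 37 to 5 (12 to 38) and the lower from 15 to 8 (10 to 15).

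Without thinning, 85.2%, 99.0%, 96.1% and 84.1% of vehicle mature neutrophils had a UMI of Ifitm1, Ifitm2, Ifitm3 and Ifitm6, against 70.2%, 90.8%, 81.2% and 63.4% thinned, so these shares depend on depth. Ranked by the mean over cells, Ifitm3 kept 6 of 11 and Ifitm6 7 of 11 class ranks in CD45+ BM, and 6 and 4 of 14 in c-Kit+ BM. Over class means, 2, 2, 2 and 1 of the 5 genes most like Ifitm1, Ifitm2, Ifitm3 and Ifitm6 recurred in CD45+ BM, and 2, 1 and 1 for Ifitm1, Ifitm2 and Ifitm3 in c-Kit+ BM.

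Replicate numbers did not pair the libraries: deviations of same-numbered libraries correlated at −0.16 to 0.36 over classes. The replicate block gave 24 member calls higher with vehicle in CD45+ classes, and 7 higher with vehicle and 17 lower with IACS-70654 in c-Kit+ classes, and changed no count by over 1.5 times beside the one above.

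With 2 libraries per group and 1 per tumor condition, the spread between mice is not known. Fewer than 50 cells in basophils, in T or NK cells of tumor-bearing mice and in treated B cells of the CD45+ libraries, and in most c-Kit+ plasma cell libraries, limit how precisely those levels are known.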

Other observations

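Ifitm1 of tumor T or NK cells differed most with anti–PD-1 alone, at 51.7 CPM with vehicle, 143 CPM with IACS-70654, 344 CPM with anti–PD-1 and 33.3 CPM with the combination (10, 27, 98 and 10 UMIs), with a log2 ratio of 2.73 for anti–PD-1 (95% interval 1.79 to 3.84, for counting error only). The ratio for IACS-70654, 1.47, turned to −0.13 without the upper limit on genes. Endothelial cells, which line vessels, had Ifitm3 at 3101 CPM with vehicle and 1655 to 2563 CPM in the other libraries, on 11 to 40 cells. Tumor dendritic cells had Ifitm3 at 1581 to 2255 CPM, and their Ifitm6 was 54.1 CPM with vehicle and 74.3 CPM with anti–PD-1, against 3 UMIs in each of the 2 libraries with IACS-70654. These are single libraries without a test.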
